A study of Mus musculus with 6 samples.

Results

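The transcripts described here were those of moderate abundance in cultured B cell precursors, and the question was how much of each came down with LIN28B. They were chosen by their input level. A gene was a member if the mean of its inputs in both tet-LIN28B mice was at least 10 and below 50 FPKM (fragments per kilobase of transcript, scaled to library size). This took 4134 of the 54752 genes in the deposited values, and of the 12518 genes whose mean input reached 1 FPKM, which entered the tests. The study itself described transcripts at 50 FPKM or more in all 4 tet-LIN28B libraries, and 0 of the members meet that filter. For each mouse the ratio was log2((IP + 1)/(input + 1)), and a direction was kept only where both mice had the same sign. The input levels and these ratios therefore chose the members and sorted them, so the ratios of tet-LIN28B mice are a description. The ratios of the littermate control, gene kinds, transcript lengths and base composition were not used in the choice.

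LIN28B is an RNA-binding protein of fetal and neonatal cells that blocks the maturation of let-7 microRNAs and also binds many mRNAs directly. Its cold shock domain and zinc knuckles contact RNA, and the zinc knuckles prefer GGAG-like motifs in single-stranded loops. In blood cell development it is known for fetal-type B cell output.

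RNA was measured in 6 libraries, an input and an anti-FLAG IP from each of 2 tet-LIN28B mice and 1 littermate control. Tet-LIN28B mice carried a Dox-inducible FLAG-tagged human LIN28B cDNA at Col1a together with Rosa26-rtTA*m2, and the littermate control carried Rosa26-rtTA*m2 alone. Bone marrow cells of adult mice of both genotypes were cultured over 5 days in Dox and IL-7 (20 ng/mL), with Dox at 0.1 mg/mL by the labels and a smaller unit in the paper. The control IP therefore shows what the antibody and beads recovered from cells that had rtTA and Dox but no FLAG-tagged protein. The protein that was pulled down was an induced human transgene in adult cells, not endogenous LIN28B. Titles and column names were followed for which library was input and which IP, since a line in the descriptions states the reverse. The transgene was carried on 1 allele and its inducer acted in all Rosa26-expressing cells.

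Depth is unknown because FPKM carry no counts, so no counting interval is given. Members held 6.86% to 9.52% of the FPKM of each library. The 15 listed B cell progenitor markers summed to 13247 to 16784 FPKM in the 3 inputs, and each was above 1 FPKM in at least 1 input. Cultures also held transcripts of other cells. The 12 neutrophil markers summed to 4552 to 7599 FPKM in the inputs, 1727 and 2702 FPKM in the tet-LIN28B IPs and 2872 FPKM in the control IP. Input sums were 423 to 731 FPKM for macrophages, 505 to 910 FPKM for megakaryocytes and 84.2 to 238 FPKM for T and NK cells, and each of these 4 lists was highest in mouse 1. Their part in results such as those of Clec4d and Tcrg-C3 was not tested. Fewer cells of a type and less RNA per cell cannot be told apart in such bulk samples. The 14 stromal and endothelial markers summed to at most 13.9 FPKM in an input, and Col3a1 and Pdgfrb were listed at 0 in all inputs, as were Slc4a1 of erythroid cells and Tpsb2 and Cma1 of mast cells.

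The stretches below are 30 bases of coding sequence from GRCm38 (GENCODE M21 models), shown because they carry GGAGA, in capitals, in the 4 highest and the 4 lowest coding members that had such a stretch within an exon and little sequence in common with other genes. They were picked for carrying the motif, and 3 low members without such a stretch were passed over, against 0 high ones. Genes of 1 chromosome and predicted or unnamed genes were left out of this choice. Their coding regions held GGAGA 8, 4, 4 and 3 times at the high end and 2, 1, 1 and 1 times at the low end, in the order shown. These counts are not scaled to length, which was 3309, 1455, 669 and 1026 nt at the high end and 831, 228, 291 and 1314 nt at the low end. Those with a high ratio encode the deubiquitinase Usp7 (chr16:8704961-8704990, minus strand), the splicing factor Sf3a2 (chr10:80801297-80801326, plus strand), the RNA polymerase III subunit Polr3g (chr13:81699772-81699801, minus strand) and the splicing factor Prpf18 (chr2:4643723-4643752, minus strand). Those with a low ratio encode the adhesion molecule Icam2 (chr11:106380804-106380833, minus strand), the small secreted protein Wfdc17 (chr11:83704853-83704882, plus strand), the cytochrome c oxidase subunit Cox6a2 (chr7:128206227-128206256, minus strand) and the mannosyltransferase Alg3 (chr16:20606922-20606951, minus strand).
Usp7: accgttctgataGGAGAgaagattattatg
Sf3a2: gcaaccgggatcGGAGAgagcgtctgcgcc
Polr3g: attcagcagaggGGAGAagttacctgatgt
Prpf18: ctgagagaaagaGGAGAgccgattagactg
Icam2: catgggcggcctGGAGAcgcccacgaataa
Wfdc17: gatcaatgctcaGGAGAtggatcctgccct
Cox6a2: agcgcagccaaaGGAGAccatggaggggca
Alg3: gcccttcctgctGGAGAaccccattggcta

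Only the transcript strand was searched, and GGAGA contains GGAG, so the counts of both motifs overlap. GGAGA was present in the coding region of 93.5% of the 1300 coding members above 0 in both mice and of 89.5% of the 1910 below 0, and in 91.2% of all 3664 coding members. Coding regions differ in length, so the same count was taken over windows of 30 bases, of which 6.85% held GGAGA in the former and 6.38% in the latter. Over whole transcripts the median density was 1.95 GGAGA per kb above 0 and 1.92 per kb below 0, and 6.75 and 6.97 per kb for GGAG. Across coding members the density of GGAGA had a Spearman rho of 0.03 and 0.06 with the ratios of mouse 1 and mouse 2 and of 0.01 with that of the control. Median densities thus lay close to each other on both sides of 0. These correlations are across genes, which share libraries and are not independent replicates.

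On the deposited scale more members were lower than higher in the LIN28B IP, an order that with centring turned for the counts by sign alone. Both mice had a ratio above 0 for 1378 members (33.3%) and below 0 for 2212 (53.5%), against 30.1% and 54.5% of all genes tested. For 544 members the mice did not have the same sign, 512 with opposite signs and 32 with a ratio of exactly 0 in a mouse. A ratio of 1 or more in both mice was reached by 264 members (6.39%, against 5.35% of genes tested) and of -1 or less by 885 (21.4%, against 18.7%). By limma the IP exceeded the input for 752 members (18.2%) and was below it for 1594 (38.6%), where 15.1% and 33.3% of genes tested were called. These counts come from the values that sorted the members and are given as a description. Median log2 ratios were -0.36 in mouse 1, -0.20 in mouse 2 and 0.07 in the control. With each mouse centred on the median of all genes tested, 1875 members were above and 1781 below 0 in both mice. By limma 1172 were then higher and 1205 lower, and the share of higher calls was 49.3% in place of 32.1%. A centred ratio of 1 or more in both mice was reached by 486 members and of -1 or less by 650. Over the 2634 members at 10 FPKM or more in both tet-LIN28B IPs, 1375 were above and 825 below 0. A cut on the IP removes low ratios by itself, so these counts cannot show which order holds. IP levels are relative within a library, and no absolute recovery was measured.

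**Figure D1:**
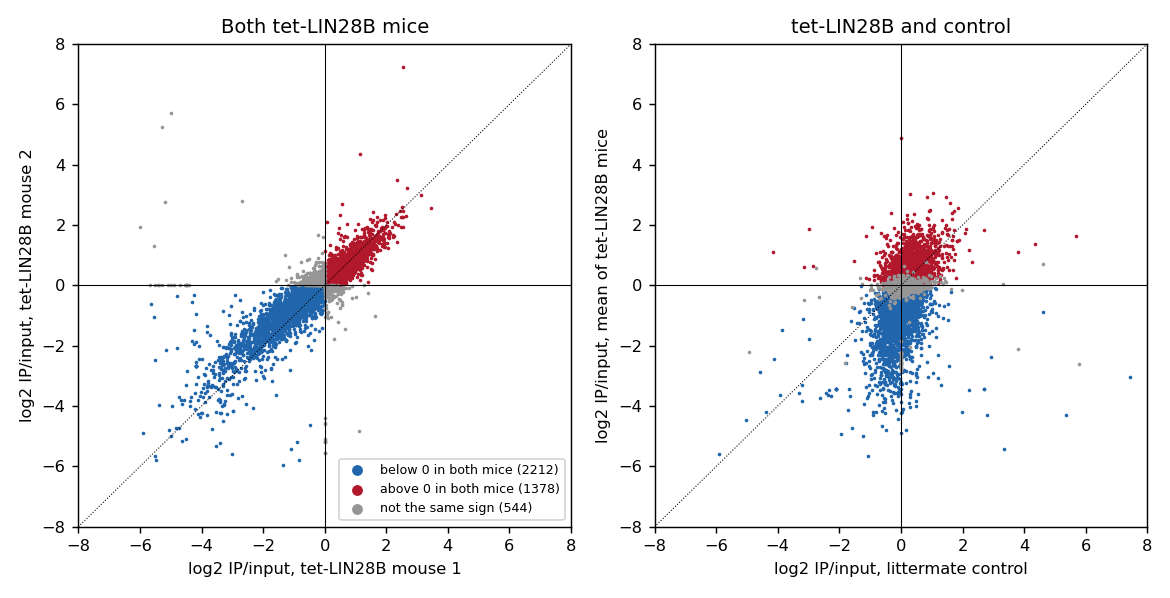
Log2 IP/input ratio of the 4134 members (points, 1 per gene), with tet-LIN28B mouse 1 against mouse 2 on the left, and the littermate control against the mean of both tet-LIN28B mice on the right, colored by direction in tet-LIN28B mice and with the diagonal dotted. Points on the left lie along the diagonal (r = 0.82), and on the right the central mass of the control is narrow (quartiles -0.23 and 0.39), with single short RNAs far out.

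Across members the ratios of both tet-LIN28B mice had a Pearson r of 0.82 and a Spearman rho of 0.90, and the median SD between them was 0.21 on the log2 scale. Between the control and mouse 1 Pearson r was 0.37 and Spearman rho 0.46, and between the control and mouse 2 they were 0.41 and 0.51. A control ratio of 1 or more was seen for 178 members (4.31%, against 4.88% of genes tested) and of -1 or less for 93 (2.25%, against 2.99%). In both tet-LIN28B IPs 318 members reached 50 FPKM and 1092 stayed below 10 FPKM. In the control IP 359 reached 50 FPKM and 394 were below 10 FPKM, and 137 were at 50 FPKM or more in all 3 IPs. These counts at 50 and 10 FPKM have no share over all genes tested beside them and are no result about the members. Both tet-LIN28B IPs were listed at 0 for 66 members, of which 39 were also listed at 0 in the control IP. For 33 members the input of a tet-LIN28B mouse was listed at 0, and ratios from such values are uncertain.

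Medians moved little within the range. From 10 to 20 FPKM (2075 genes) the median ratio was -0.39 in mouse 1, -0.20 in mouse 2 and 0.08 in the control, and from 40 to 50 FPKM (428 genes) it was -0.28, -0.22 and 0.03. At 100 FPKM or more (1344 genes) it was -0.57, -0.51 and -0.24. Genes at 1 to 10 FPKM (6177 genes) had medians of -0.38, -0.21 and 0.11, and mice did not have the same sign for 19.6% of them, against 13.2% of members and 8.02% of the 2207 genes at 50 FPKM or more. The median SD between both mice was 0.24 at 1 to 10 FPKM and 0.20 at 50 FPKM or more. Differences between these bands were not tested.

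Just inside the lower limit were Slc25a12, Aga and Ap3m1 with mean inputs of 10, 10.005 and 10.005 FPKM, and just outside it Clptm1 and Mthfd2l, both at 9.995 FPKM. Just inside the upper limit were Mthfd2, Orc4 and Gm17300 at 49.995, 49.97 and 49.91 FPKM, and just outside it Fen1, Siglecg and Mrps5 at 50.02, 50.04 and 50.06 FPKM. Their mean log2 ratios lay on both sides of 0 on either side of the upper limit, with 0.31 for Mthfd2 and -2.90 for Gm17300 inside, and 1.27 for Fen1 and -2.69 for Siglecg outside.

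**Figure D2:**
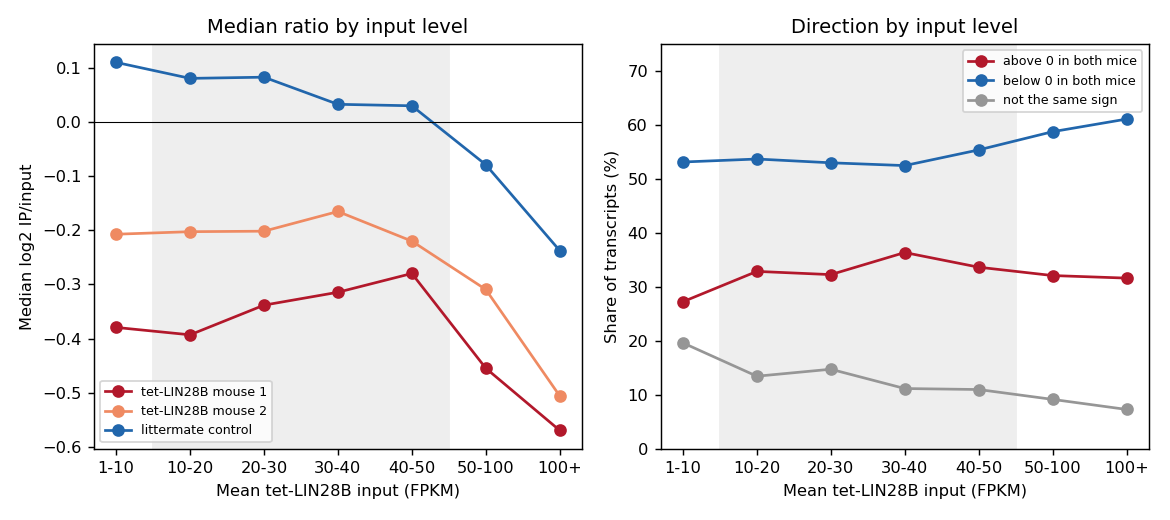
Median log2 IP/input ratio per mouse (left) and share of transcripts by direction in both tet-LIN28B mice in percent (right), over bands of mean tet-LIN28B input in FPKM, with the 10 to 50 FPKM range of the members shaded. Medians of both tet-LIN28B mice stay below 0 in every band, and the share without the same sign declines from 19.6% at 1 to 10 FPKM to 7.29% at 100 FPKM or more.

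The highest ratios included transcripts of nuclear and signaling proteins. Usp7 encodes a deubiquitinase of the nucleus, and its gene spans 8689595 to 8792308 of chromosome 16 (GRCm38). It went from 47.71 FPKM in the input to 420.11 FPKM in the IP of mouse 1 and from 34.04 to 278.52 FPKM in mouse 2. In the control it went from 34.84 to 73.11 FPKM. Its mean log2 ratio was 3.05 ± 0.08 (SD, n = 2) against 1.05 in the control. Rbpj, the DNA-binding effector of Notch signaling on chromosome 5 from 53466152 to 53657362, went from 21.69 to 142.96 FPKM and from 16.19 to 158.31 FPKM, and from 15.18 to 28.08 FPKM in the control. Of its 50-mers, 23.4% occur in transcripts of other genes, so its reads may be split among copies.

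Splicing factors stood among these. Sf3a2, a subunit of the U2 snRNP, went from 12.28 to 66.3 FPKM in mouse 1, from 12.25 to 149.78 FPKM in mouse 2 and from 14.59 to 42.36 FPKM in the control, so that the mice differed by more than for Usp7 (log2 ratio 2.92 ± 0.83, SD, n = 2). Prpf18, which acts at the exon ligation step, went from 15.48 to 95.66 FPKM, from 14.39 to 84.35 FPKM and from 11.93 to 24.15 FPKM in the same order. Prpf6, a protein of the tri-snRNP, went from 11.38 to 69.34 FPKM and from 12.75 to 65.02 FPKM, while in the control the IP, at 12.62 FPKM, was not above the input, at 15.97 FPKM.

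Polr3g, a subunit of RNA polymerase III, had log2 ratios of 2.52 and 2.58, with 1.87 in the control. Rragd, a Rag GTPase that signals amino acids to mTORC1, had 2.45 and 2.47, with 1.72 in the control. Rabl6, a Rab-like GTPase, had 2.54 and 2.26, with 1.66 in the control. For these 3 transcripts the control IP was thus also above its input, by over 3-fold. Ppp4r2, a regulatory subunit of protein phosphatase 4, had 2.64 and 2.30, with 0.91 in the control. The mitochondrial tRNA mt-Td had the highest mean ratio but was listed at 0 in the input of mouse 2 and in both control libraries, so no fold is given. Passed over as predicted or unnamed genes were 2 among the highest and 15 among the lowest.

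Small nucleolar RNAs and antigen receptor segments were among the lowest ratios. Snord118, the U8 small nucleolar RNA of large subunit rRNA processing, had tet-LIN28B inputs of 43.64 and 54.57 FPKM and was listed at 0 in both IPs, with 57.59 FPKM in the input and 27.08 FPKM in the IP of the control. Snora15 was at 29.82 and 14.94 FPKM in the inputs and listed at 0 in both IPs, but also in the control IP, against 31.74 FPKM in the control input. Snora33 was listed at 0 in both tet-LIN28B IPs and in the control input. Immunoglobulin segments Igkv3-7 and Igkv10-96 had tet-LIN28B inputs of 15.07 to 30.34 FPKM and IPs of 0 to 0.62 FPKM, while control IPs held 27.61 and 22.79 FPKM. Tcrg-C3, a constant segment of the T cell receptor gamma locus, had log2 ratios of -4.58 and -3.79, with -0.92 in the control. Ifitm6, an interferon-induced transmembrane protein, had -4.39 and -3.84, with -1.72 in the control, and the pseudogene AC154187.2 had -4.84 and -4.72, with 0.17 in the control.

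**Figure D3:**
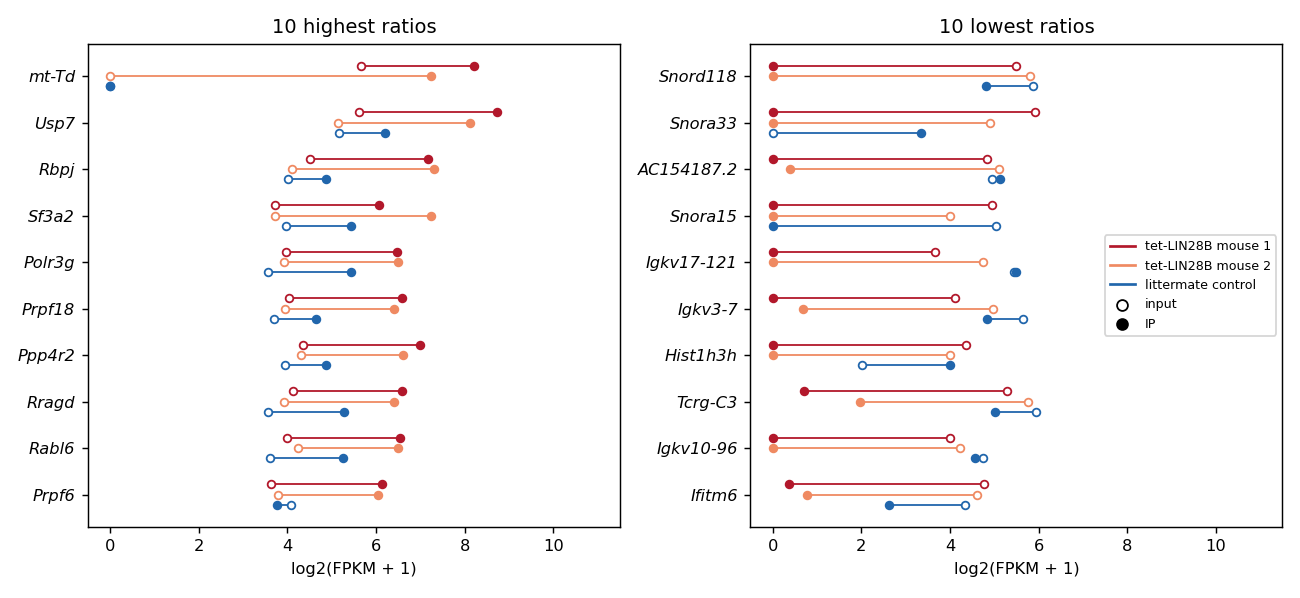
Input (open) and IP (filled) level as log2(FPKM + 1) in each mouse for the 10 members with the highest (left) and the 10 with the lowest (right) mean log2 ratio in tet-LIN28B mice. The lines of the control are shorter than those of tet-LIN28B mice for most of the highest, while for Polr3g, Rragd and Rabl6 the control reaches ratios of 1.66 to 1.87, and 6 of the 10 lowest are listed at 0 in both tet-LIN28B IPs.

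By kind of gene, 3664 members were coding with 1 gene model. Of these 1300 were above and 1910 below 0 in both mice. Of 39 immunoglobulin variable segments 0 were above and 37 below 0, with medians of -3.32 and -3.36 in tet-LIN28B mice, against -0.18 in the control. Of 33 small nucleolar RNAs 0 were above and 17 below 0, 16 did not have the same sign in both mice, and 21 were listed at 0 in both tet-LIN28B IPs. Their median in the control was 0. Of 21 small nuclear RNAs 0 were above and 17 below 0. Of 65 long intergenic RNAs 15 were above and 44 below 0, of 66 antisense RNAs 20 and 39, and of 108 processed pseudogenes 21 and 60. Members with a model under 200 nt numbered 107, of which 5 were above and 58 below 0. Libraries were primed on poly(A) tails by the kit of the methods, but the paper's results name total RNA sequencing for the inputs. The part of poly(A) tails, or of such a difference between fractions, in these values was not tested. Whether strand was used in counting antisense genes is not stated in the sources used here.

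The control ratio, which the choice did not use, was related to direction in tet-LIN28B mice. Among members above 0 in both tet-LIN28B mice the median control ratio was 0.35 (quartiles 0.07 and 0.66), and 80.0% were above 0 in the control as well, against 55.5% of all members. Among those below 0 in both it was -0.09 (quartiles -0.37 and 0.18), and 59.9% were below 0 in the control, against 43.4% of all members. At a ratio of 1 or more in both tet-LIN28B mice the control median was 0.59, and 61 of these 264 members were at 1 or more in the control too. At -1 or less the control median was -0.24, and 57 of these 885 were at -1 or less in the control. The anti-FLAG IP of cells without the tagged protein thus leaned the same way over many members, with a smaller size.

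Relative to the control, few members were higher and many lower. Over the control, the tet-LIN28B ratio was higher for 71 members (1.72%, against 1.86% of genes tested) and lower for 536 (12.97%, against 9.83%) by limma at an adjusted p under 0.05. The median difference was -0.41 over members and -0.41 over all genes tested. Of the members called, 11.7% were higher, and 23.96% when every mouse was centred (46 higher and 146 lower). Without the mouse as a replicate block 0 were higher and 0 lower by limma, with 256 and 1091 at an unadjusted p under 0.05. The lone control was taken to vary as much as tet-LIN28B mice do, which a lone mouse cannot show. The paper itself states that this experiment had too few biological replicates for statistical analysis. The share called differed by input level, with 0.745% higher and 3.74% lower at 1 to 10 FPKM and 5.26% and 21.02% at 50 FPKM or more.

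Among the largest rises over the control, Zfp969, a zinc finger protein, went from 18.84 to 72.09 FPKM and from 36.11 to 131.82 FPKM in tet-LIN28B mice, but from 34.3 to 3.45 FPKM in the control. All of its 50-mers occur in other genes, so these levels are uncertain. Anapc4, a subunit of the anaphase-promoting complex (chromosome 5, 52834012 to 52867797), went from 25.82 to 131.41 FPKM and from 24.96 to 131.32 FPKM, and from 27.65 to 31.81 FPKM in the control. By limma it exceeded the control by 2.13 on the log2 scale (standard error 0.30, adjusted p = 0.0163). Prpf6 had 2.702 (standard error 0.32, adjusted p = 0.0117), Rbpj 2.09 (standard error 0.36, adjusted p = 0.0227) and Usp7 2.01 (standard error 0.30, adjusted p = 0.0178) by the same test.

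Zfp639, a zinc finger protein, and Rfesd, a protein with a Rieske iron-sulfur domain, rose by log2 differences of 2.04 and 2.06 (adjusted p = 0.0194 and 0.0172 from limma). Clec4d, a C-type lectin of myeloid cells, went from 13.6 to 62.43 FPKM and from 8.6 to 30.79 FPKM, while it went from 9.39 to 4.43 FPKM in the control. Ighv8-6 had log2 ratios of 1.42 and -0.25, with -2.76 in the control, so that it was above the control in both mice without sharing a direction. Cox6c2, a processed pseudogene, was listed at 0 in the control IP.

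The largest falls against the control were mostly short RNAs. Snora78 had tet-LIN28B inputs of 12.78 and 8.02 FPKM and was listed at 0 in their IPs, with 8.55 FPKM in the input and 42.84 FPKM in the IP of the control. The Y RNA Rny1 was at 19.18 and 12.13 FPKM in the inputs and listed at 0 in the IPs, with 13.3 and 16.61 FPKM in the control. Snora33, Snora9, Mir1892 and Mir1949 were listed at 0 in the control input, so their differences are no bound. Hist1h3h and the pseudogene AC154187.2 were also among these falls, the latter with tet-LIN28B IPs of 0 and 0.31 FPKM, so that its difference depends on the pseudocount.

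Gene lists were described by counts of members above and below 0 in both mice and by their medians, beside medians of -0.39, -0.24 and 0.04 in mouse 1, mouse 2 and the control over all genes tested. Among all members 33.3% were above and 53.5% below 0, and 1.72% rose and 12.97% fell against the control, and a list's share near these is no result about the list. Of 31 lists, 30 had at least 5 members, and together they held 725 members. Median transcript length of members went from 532 nt (histones) to 5118 nt (hnRNP and SR proteins), against 2602.5 nt over all members. Ratios varied with length in every mouse, as given below, and its part in the counts and medians of the lists was not tested. In this paragraph and the next ones the difference from the control is the limma test.

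Among RNA-processing proteins, the splicing and hnRNP lists had medians above 0. Of 35 spliceosome and splicing factors 21 were above and 8 below 0 (medians 0.44, 0.49 and 0.06), and 2 rose and 1 fell against the control. Prpf18 rose over the control by 1.55 (adjusted p = 0.0311) and Sf3b4, a subunit of SF3b, was lower by 2.48 (adjusted p = 0.0293), though 49.2% of its 50-mers are shared. Of 11 hnRNP and SR proteins 7 were above and 1 below 0 (medians 0.62, 0.42 and 0.25). Tial1, a regulator of splicing and translation, went from 42.65 to 124.7 FPKM and from 43.07 to 126.07 FPKM, and from 29.98 to 36.47 FPKM in the control (difference 1.25, adjusted p = 0.0481). Celf1, another RNA-binding protein of this list, had ratios of 1.63 and 1.31, with 1.82 in the control.

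Of 23 RNA decay factors 5 were above and 11 below 0, with Lsm1, which binds the ends of decaying mRNAs, lower than in the control by 2.13 (adjusted p = 0.0352) and Ddx6, a helicase of decapping, at 1.75 and 1.51 against 0.87 in the control. Of 6 transcripts of the microRNA pathway 2 were above and 4 below 0. Dhx9, an RNA helicase, went from 12.16 to 34.17 FPKM and from 11.02 to 28.58 FPKM, and from 10.1 to 7.08 FPKM in the control (difference 1.82, adjusted p = 0.0245). Dicer1, which cuts pre-microRNAs, had ratios of 0.50 and 0.79, with 0.48 in the control.

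Transcripts of the translation machinery were divided. Of 19 aminoacyl-tRNA synthetases and cofactors 11 were above and 6 below 0 (medians 0.33, 0.61 and 0.07). Sars, which charges serine tRNA, went from 35.98 to 143.49 FPKM and from 36.83 to 141.67 FPKM, and from 33.84 to 49.43 FPKM in the control (difference 1.41, adjusted p = 0.0356). Aimp2, a scaffold of the synthetase complex, had ratios of -1.68 and -1.21, with 0.09 in the control. Of 18 translation initiation and elongation factors 9 were above and 9 below 0, among them Eif2s3x at 1.86 and 1.30 and Eif2b1 at -2.46 and -1.44. Of 44 ribosome biogenesis factors 20 were above and 19 below 0. Utp6, of small subunit processing, rose over the control by 1.80 (adjusted p = 0.0266) and Bop1, of large subunit processing, was lower by 1.93 (adjusted p = 0.0318).

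Respiratory chain transcripts mostly had low ratios. Of 22 nuclear-encoded respiratory chain subunits and assembly factors 1 was above and 15 below 0 (medians -0.92, -0.73 and -0.12), and 0 rose and 4 fell against the control. Ndufaf1, an assembly factor of complex I, went from 17.53 to 3.35 FPKM and from 17.86 to 3.89 FPKM, and from 20.08 to 16.69 FPKM in the control (difference -1.77, adjusted p = 0.0275). The member above 0 was Ndufs1, a subunit of complex I, at 0.41 and 0.63. Of 21 mitochondrial ribosomal proteins 6 were above and 14 below 0, and 0 rose and 5 fell against the control. Mrps11, of the small subunit, had ratios of -3.30 and -2.49, with -0.44 in the control, while Mrpl9, of the large subunit, had 1.14 and 1.15, with 0.28. Of 10 transcripts of the TCA cycle 6 were above and 4 below 0, among them Sucla2 at 1.24 and 1.08 and Idh3a at -1.81 and -1.27.

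Lists of the secretory and lysosomal pathways had members on both sides, with shares below 0 not far from that of all members. Of 35 factors of ER translocation, signal peptide processing and N-glycosylation 11 were above and 22 below 0 (medians -0.47, -0.24 and 0.20), and 0 rose and 7 fell against the control. Alg3, shown above, went from 12.88 to 0.13 FPKM and from 17.08 to 0.79 FPKM, with 20.07 and 14.81 FPKM in the control. Sel1l, a subunit of an ER ubiquitin ligase, had ratios of 1.61 and 1.46, with 0.96 in the control. Of 29 lysosomal and V-ATPase transcripts 9 were above and 17 below 0 (medians -0.60, -0.49 and 0.22), and 0 rose and 7 fell. Ctsa, a lysosomal carboxypeptidase, went from 33.52 to 3.44 FPKM and from 30.91 to 6.54 FPKM in tet-LIN28B mice and from 34.12 to 44.43 FPKM in the control (difference -2.89, adjusted p = 0.0181). Of 20 transcripts of MHC, antigen presentation and the interferon response 6 were above and 13 below 0, and 0 rose and 6 fell against the control. Xaf1 and Isg20, which are interferon-induced, were lower by 3.43 and 2.74 (adjusted p = 0.0141 and 0.0234).

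Chromatin regulators and the transcription machinery had medians on opposite sides of 0 in each of the 3 mice, a difference that was not tested. Of 47 chromatin remodelling and histone modification transcripts 27 were above and 17 below 0 (medians 0.23, 0.33 and 0.37). Chd2, a chromatin remodeller, and Dnmt3a, a DNA methyltransferase, had ratios of 2.22 and 1.59 and of 1.70 and 2.27, and the control was at 1.42 and 1.09. Of the list 0 rose over the control and 5 fell, a share near the 9.83% of genes tested that fell. Of 39 transcripts of RNA polymerase II and III, Mediator and general transcription factors 10 were above and 24 below 0 (medians -0.54, -0.35 and -0.12). The median difference from the control was negative for both lists, -0.13 and -0.43. Med29 and Med6, subunits of Mediator, were lower than in the control by 2.29 and 2.38 (adjusted p = 0.0176 and 0.0146).

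Of 48 mitotic transcripts 19 were above and 27 below 0, among them Anapc4 (above) and Aurkb, the catalytic subunit of the chromosomal passenger complex, which went from 45.14 to 4.43 FPKM and from 43.03 to 8.24 FPKM, and from 46.66 to 35.51 FPKM in the control. Of 31 DNA replication transcripts 10 were above and 16 below 0. Cdc7, the kinase that starts origins, rose over the control by 1.61 (adjusted p = 0.0435).

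Replication-dependent histones, whose mRNAs end in a stem-loop and mostly have no poly(A) tail, had the lowest medians of the 30 lists, -3.21 and -2.85 in tet-LIN28B mice, with -0.44 in the control. Of 16 members 0 were above and 14 below 0, each of the 14 at -1 or less in both mice, and 11 fell against the control. Hist1h3a went from 31.5 to 0.42 FPKM and from 41.75 to 3.3 FPKM, and from 37.07 to 15.65 FPKM in the control. Hist1h3h was listed at 0 in both tet-LIN28B IPs. Of the 50-mers of Hist1h3a and Hist1h3h, 50.5% and 93.2% occur in other genes, and the levels of single copies are uncertain.

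Transcripts of B cell identity and signaling were on both sides. Of 29 B lineage and hematopoietic transcription factors 17 were above and 8 below 0 (medians 0.19, 0.24 and 0.37), and 0 rose and 3 fell against the control. Ets1 went from 42.79 to 150.51 FPKM and from 41.48 to 146.49 FPKM, and from 30.66 to 58.28 FPKM in the control (difference 0.89, adjusted p = 0.104). Spi1, which encodes PU.1, went from 25.32 to 4.33 FPKM and from 25.25 to 6.26 FPKM, and from 30.9 to 23.16 FPKM in the control (difference -1.68, adjusted p = 0.0352). E2f2, a cell cycle factor, had ratios of 1.19 and 1.43, with 1.65 in the control.

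Of 28 transcripts of pre-BCR and BCR signaling 11 were above and 13 below 0. Cd22, an inhibitory co-receptor, and Orai1, the pore of the store-operated calcium channel, were lower than in the control by 2.16 and 2.19 (adjusted p = 0.0307 and 0.0215), while Grb2, an adaptor, had ratios of 1.15 and 1.03, with 0.61 in the control. Of 28 transcripts of the IL-7 receptor, JAK-STAT and MYC-mTOR axis 8 were above and 15 below 0, and 0 rose and 4 fell. Cish, a feedback inhibitor of cytokine receptors, went from 35.91 to 6.86 FPKM and from 29.45 to 7.05 FPKM, whereas it went from 28.08 to 44.78 FPKM in the control (difference -2.73, adjusted p = 0.0118). Tsc2, an inhibitor of mTORC1, was lower by 2.24 (adjusted p = 0.0205). Bcl2l1, a survival factor, had 1.57 and 1.40, with 1.13 in the control.

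Of 10 known let-7 targets of fetal cells 5 were above and 5 below 0, and 0 rose and 2 fell against the control. Myc went from 41.05 to 9.42 FPKM and from 43.28 to 18.01 FPKM, and from 42.6 to 28.27 FPKM in the control (difference -1.04, adjusted p = 0.150). The chemokine receptor Ccr7 was lower by 2.33 (adjusted p = 0.0172). Cdc25a, a phosphatase of cell cycle entry, had ratios of 1.88 and 1.60, with 0.96 in the control.

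The remaining lists had counts above and below 0 of 10 and 5 (17 importins and exportins), 13 and 8 (23 chaperones), 10 and 12 (23 nucleoporins and mRNA export factors), 12 and 15 (30 vesicle coats and tethers), 10 and 11 (28 DNA repair transcripts), 6 and 6 (15 of cholesterol synthesis), 4 and 8 (14 of autophagy) and 4 and 5 (9 of the proteasome). In these 8 lists Nup107, a nucleoporin, Psmd1, of the proteasome base, Pik3r4, of the autophagy kinase complex, and Uso1, a Golgi tether, rose over the control by 1.40, 1.95, 1.62 and 1.55 (adjusted p = 0.0425, 0.0197, 0.0304 and 0.0352). Aaas, another nucleoporin, had ratios of -3.68 and -3.35, with -0.37 in the control. The sign of a list's median ratio in tet-LIN28B mice turned with centring for DNA replication, DNA repair, nucleoporins, RNA decay, translation factors, pre-BCR signaling, cholesterol synthesis, the proteasome and the microRNA pathway. Splicing factors and the TCA cycle kept a positive median difference from the control under TPM rescaling and centring (0.10 to 0.62 and 0.09 to 0.61), while those of hnRNP proteins, aminoacyl-tRNA synthetases, importins, chaperones and DNA repair, between 0.06 and 0.14, turned negative with TPM rescaling. Negative median differences were kept by mitochondrial ribosomal proteins, the respiratory chain, ER translocation, lysosomes, RNA polymerase and Mediator, the IL-7 axis, let-7 targets, interferon response, autophagy and histones, and the other negative ones turned positive with centring.

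**Figure D4:**
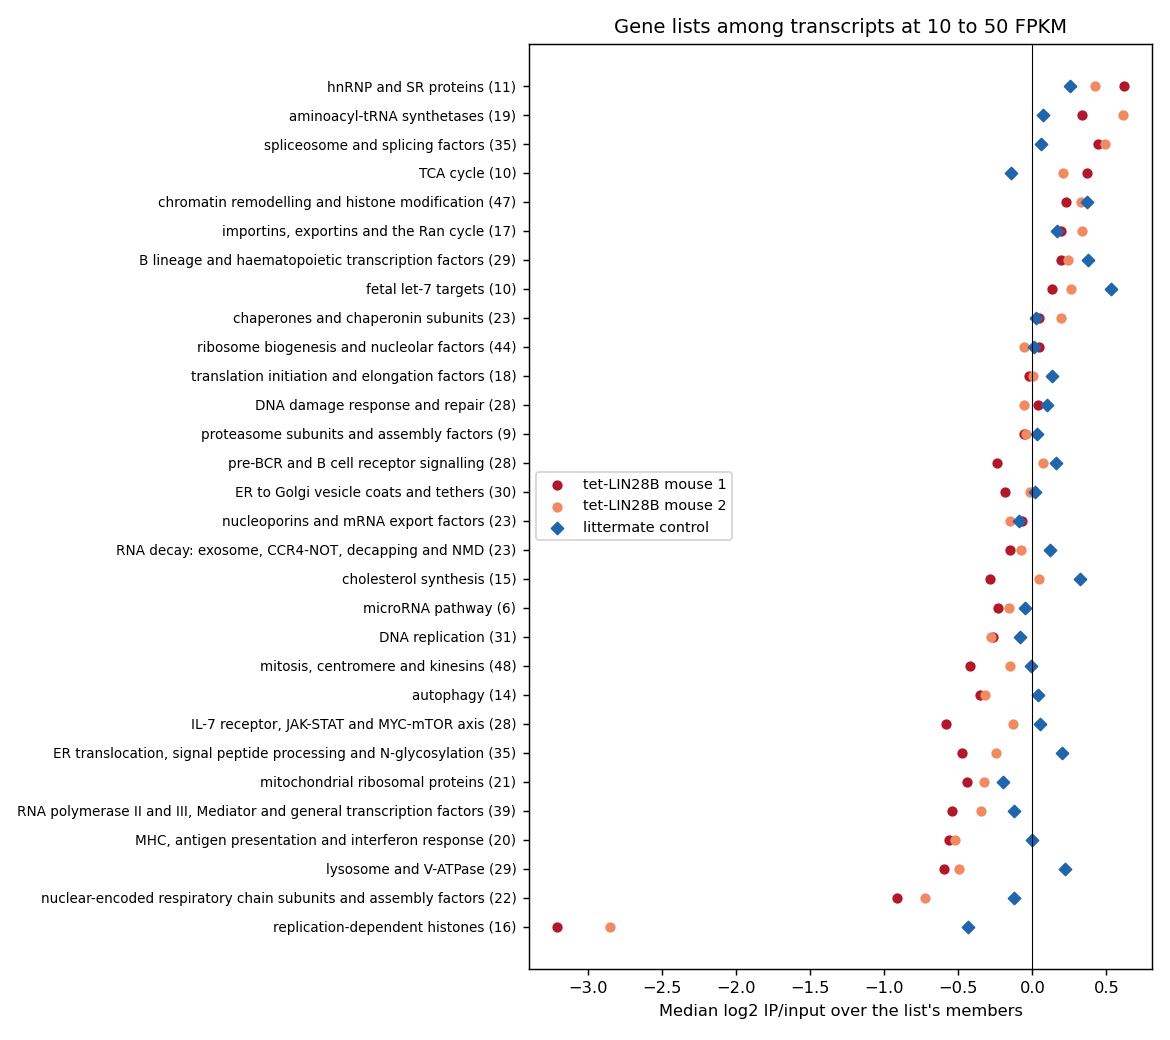
Median log2 IP/input ratio in tet-LIN28B mouse 1, tet-LIN28B mouse 2 and the littermate control (horizontal axis) over the members of the 30 gene lists with at least 5 members, with the number of members in brackets and lists ordered by the mean of both tet-LIN28B medians. Histones lie at -3.21 and -2.85, far below the other lists, and control medians lie between -0.44 and 0.53.

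Ratios varied with transcript length in all 3 mice. Over the 3664 coding members, cut into 5 bins of equal size, the shortest (median 1347 nt) had median ratios of -1.10 and -0.84 in tet-LIN28B mice, with -0.16 in the control. The longest (median 5918 nt) had 0.16, 0.28 and 0.35. Of the shortest bin 17.1% were above and 74.4% below 0 in both mice, and of the longest 55.5% and 30.7%. Spearman rho with length was 0.35 and 0.38 in tet-LIN28B mice, with 0.36 in the control, and 0.24 for the difference between them. The median difference from the control was -0.82 in the shortest bin and -0.17 in the longest. Coding members above 0 had a median length of 3462 nt, with a coding region of 1512 nt and a 3′ UTR of 1335 nt, and those below 0 of 2301 nt, 1119 nt and 721 nt.

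With GC content, tet-LIN28B mice and the control went opposite ways. Medians went from 0.04 and 0.05 in the bin of lowest GC content (median 41.6%) to -0.93 and -0.53 in that of highest GC content (median 57.5%) in tet-LIN28B mice, and from -0.01 to 0.16 in the control. Spearman rho was -0.30 and -0.23 in tet-LIN28B mice, with 0.11 in the control, and -0.38 for the difference between them. In the bin of highest GC content 4 of 733 members rose and 166 fell against the control by limma, and in that of lowest GC content 19 and 24 of 733. Of all genes tested 1.86% rose and 9.83% fell. Split at the median length (2796 nt) and the median GC content (49.6%), long GC-poor transcripts had medians of 0.12, 0.18 and 0.16 and short GC-rich ones of -0.93, -0.63 and 0.03. Long GC-rich transcripts, at -0.22, 0.05 and 0.34, and short GC-poor ones, at -0.37, -0.27 and -0.18, lay between them in tet-LIN28B mice. These are relations across genes of the same 6 libraries, and genes are not independent replicates.

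**Figure D5:**
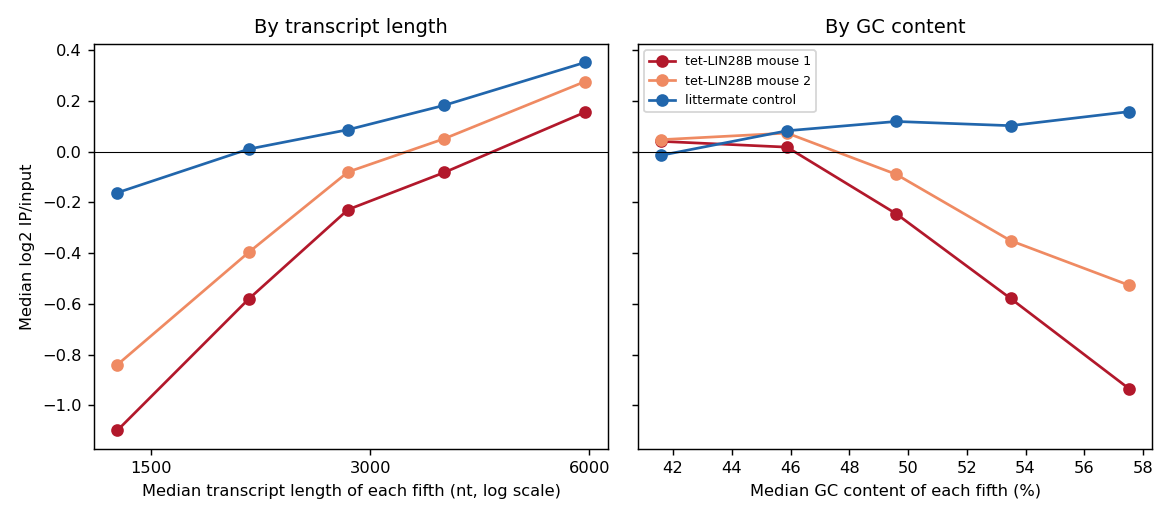
Median log2 IP/input ratio in each mouse over 5 bins of the 3664 coding members by transcript length (left, log axis, nt) and by GC content (right, percent), each bin drawn at its median. With length the 3 lines climb, from -1.10 and -0.84 to 0.16 and 0.28 in tet-LIN28B mice and from -0.16 to 0.35 in the control. With GC content the tet-LIN28B lines descend to -0.93 and -0.53 and the control line ends at 0.16.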

How the data were processed

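Per the labels and methods, STAR 2.7.1 (mm10) and RSEM 1.28 gave gene levels, which the authors deposited as FPKM for 54752 genes. Of the symbols, 14 are date-like spreadsheet conversions, 5 of them among the members. No pair of libraries was identical. Ratios were formed within each mouse, log2((IP + 1)/(input + 1)), and tested with limma 3.58.1 in R 4.3.3 with a trend, for genes with a mean tet-LIN28B input of at least 1 FPKM, with Benjamini-Hochberg adjustment over all 12518 genes. The fit had 1 residual degree of freedom, so the spread came from all genes together. The mouse is a replicate block through the ratio. Titles pair IP and input of a mouse, and the difference between mouse 1 and mouse 2 had r = 0.14 between input and IP across genes. The script was tested on simulated data in which the control was given the same spread as tet-LIN28B mice. That assumption about the lone control was therefore not tested.

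Lengths, GC content and motifs are those of 1 GENCODE M21 model per gene, which matched 4114 of 4134 members. The models the authors counted on are not given in the sources used here. Shared sequence is the share of 50-mers, sampled every 5 bases, found in other genes.

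Members, gene lists and the rule for named genes were chosen with earlier results of these data known. Named were the 10 highest and 10 lowest ratios with a shared direction, the 10 largest called changes each way from the control, the 2 highest and 2 lowest ratios in every list with at least 5 members, and 3 genes on each side of each limit, passing over predicted genes. A gene next to the lower limit is not reported here. Icam2, Wfdc17 and Cox6a2 are named for their sequences, a choice made with their values in view. Alternatives changed the pseudocount, scaling, centring, filter, trend, robustness, block and member choice, and omitted either tet-LIN28B mouse. The restriction to members with 1 model of at least 200 nt and at most 10% of shared 50-mers was added after seeing the data.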

Additional observations from a re-analysis of the deposited data

Results flagged for a closer look

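Members stood out here where limma separated the tet-LIN28B ratio from that of the littermate control. This was so for 71 with a higher ratio (1.72%, against 1.86% of genes tested) and 536 with a lower one (12.97%, against 9.83%). Without the replicate block or without the filter 0 were higher and 0 lower. This contrast has 1 control mouse.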

How the results depend on the processing

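Counts above 0 in both mice were 1231 to 1875 over the alternatives run, and with centring exceeded those below 0 (1875 and 1781). The median log2 ratio of -0.28 turned to 0.029 with centring on the median and to 0.17 over the 2634 members at 10 FPKM or more in both tet-LIN28B IPs, a choice that removes low IPs. Over those members 825 were below 0 in both mice, 100 at -1 or less, 407 lower in the IP by limma and 50 lower than in the control. With centring 486 were at 1 or more and 650 at -1 or less, 1172 higher and 1205 lower in the IP, and 46 higher and 146 lower than in the control. TPM rescaling, which moved the median of all genes by 0.07, 0.12 and 0.23 in mouse 1, mouse 2 and the control, left 44 higher than in the control. Against the control, calls were 26 higher and 228 lower with a pseudocount of 0.1 FPKM and 12 higher and 182 lower without a trend. With the filter at 10 FPKM 163 were higher, and over the 3480 members with 1 model of 200 nt or more and little shared sequence 45. Without a replicate block limma called 0 higher and 0 lower against the control (256 and 1091 at an unadjusted p under 0.05). Without a filter (26505 genes, total degrees of freedom 1.73 in place of 6.14) limma gave 0 calls in either direction in both comparisons, with 794 higher and 1321 lower in the IP, and 272 and 793 against the control, at an unadjusted p under 0.05. Leaving out a tet-LIN28B mouse gave medians of -0.36 to -0.20, 1540 to 1731 members above 0, 2383 to 2582 below 0, 361 to 368 at 1 or more and 972 to 1301 at -1 or less, with no limma test since no residual degree of freedom remains. Unlike the settings above that left fewer, TPM rescaling and the filter at 10 FPKM gave more members lower than in the control than the main setting did. Where a cause is not named it was not tested. Called ratios of named genes did not change sign in these fits. Calls against the control were lost for 75 named genes without the block or without the filter, settings in which no member kept a call. The 157 named genes include those without a call to lose. Such calls were lost for 39 without a trend, 33 with centring, 30 with a pseudocount of 0.1 FPKM and 6 with TPM rescaling. Bop1, Cd22 and Aurkb were among those lost without a trend, with centring and with the lower pseudocount. The difference of AC154187.2 was larger with the lower and smaller with the higher pseudocount. Unknown depth limits the members listed at 0.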
